A study of Mus musculus with 14 samples.

Results

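The genes of interest were 54 genes of the skeletal muscle sarcomere and of muscle metabolism, chosen by name for their place in muscle biology, and each was read by the probe set with the highest mean signal over 14 arrays. A probe set was named for 53 of the 54, out of 18193 genes named on the array, and all 53 were among the 11815 genes tested. The remaining gene, Xirp2, was not analysed here. All 53 reached a signal of 200 on at least 1 array, but Myh8 did so in osteosarcoma 6 alone, and Mybph, Xirp1, Cacna1s and Jph1 did so only in osteosarcomas 6 or 9.

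The study profiled tumour RNA from mice carrying 1 disrupted copy of the tumour suppressor gene p53 (p53+/-). The arrays comprised 1 tumour labelled rhabdomyosarcoma (RMS, a cancer with skeletal muscle features), 12 osteosarcomas (bone-forming tumours) and the untreated, non-tumorigenic mouse osteoblast line mc3T3 grown in culture. Each sample had 1 array, so the RMS and the cell line were unreplicated, and the labels state neither the age or sex of the mice nor whether each tumour came from its own animal, so the spread between tumours may be partly technical. The genotype of mc3T3 is not stated in the labels. Osteosarcomas are numbered 1 to 12 below, and 6 of them have identifiers that begin with m, 4 with c and 2 with o, letters whose meaning the labels do not give.

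Skeletal muscle contracts when myosin thick filaments pull on actin thin filaments within repeating units called sarcomeres, anchored at Z-discs. Adult fibres are commonly divided into fast and slow types, which use different genes for the same part, so that myosin heavy chains, myosin light chains, troponins and calcium-storage proteins each come in fast and slow versions. Embryonic and cardiac-type versions are used in developing and regenerating skeletal muscle before the adult versions take over. None of these genes is a characteristic product of bone-forming cells.

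The myosin heavy chain genes define the fibre type, and their promoters are shown because the slow and IIa chains differed most between osteosarcomas 6 and 9 among the myosin heavy chains. Myh4 and Myh1 encode the fast IIb and IIx chains, Myh2 the fast IIa chain, Myh3 the embryonic chain and Myh7 the slow chain. In the gene table of mouse build GRCm38.p6, Myh3, Myh2, Myh1, Myh4 and Myh8 lie next to each other in that order on chromosome 11, and Myh7 lies on chromosome 14. The 250 bases before the gene start, from RefSeq in build GRCm38.p6, are at chr11:67237562-67237811 for Myh4, chr11:67199852-67200101 for Myh1, chr11:67170777-67171026 for Myh2 and chr11:67078050-67078299 for Myh3, all on the plus strand. For Myh7 they are at chr14:54994627-54994876 on the minus strand, from the outermost of 2 starts listed. Capitals mark matches, on either strand, to CANNTG (the E-box read by the MyoD family), to TATAAA, to the MEF2 motif and to the CArG box of serum response factor. Each is written 5′ to 3′.
Myh4: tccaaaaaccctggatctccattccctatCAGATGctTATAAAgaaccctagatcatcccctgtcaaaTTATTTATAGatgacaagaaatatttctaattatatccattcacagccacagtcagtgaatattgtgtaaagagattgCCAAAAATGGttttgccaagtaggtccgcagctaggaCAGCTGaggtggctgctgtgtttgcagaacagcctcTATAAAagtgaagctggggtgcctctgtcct
Myh1: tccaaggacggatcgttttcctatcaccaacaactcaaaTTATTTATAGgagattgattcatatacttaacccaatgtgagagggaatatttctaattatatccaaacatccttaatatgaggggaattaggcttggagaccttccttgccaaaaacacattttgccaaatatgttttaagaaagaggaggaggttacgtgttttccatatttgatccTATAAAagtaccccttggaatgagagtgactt
Myh2: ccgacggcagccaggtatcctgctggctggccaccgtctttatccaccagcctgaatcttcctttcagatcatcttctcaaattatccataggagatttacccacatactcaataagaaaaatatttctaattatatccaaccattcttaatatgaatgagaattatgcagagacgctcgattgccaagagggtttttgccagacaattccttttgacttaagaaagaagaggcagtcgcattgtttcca
Myh3: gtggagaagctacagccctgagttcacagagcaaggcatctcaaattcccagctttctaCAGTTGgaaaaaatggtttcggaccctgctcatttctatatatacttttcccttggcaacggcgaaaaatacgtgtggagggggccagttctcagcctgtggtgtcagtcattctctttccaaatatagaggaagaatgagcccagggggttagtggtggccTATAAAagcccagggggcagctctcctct
Myh7: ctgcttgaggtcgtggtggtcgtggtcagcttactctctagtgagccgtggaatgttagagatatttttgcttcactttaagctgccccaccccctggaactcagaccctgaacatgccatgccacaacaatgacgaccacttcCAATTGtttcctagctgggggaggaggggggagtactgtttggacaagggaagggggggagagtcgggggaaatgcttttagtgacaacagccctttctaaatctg

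TATAAA began 31 bases before the start in Myh4, 32 in Myh1 and 29 in Myh3, and none of the 4 motifs matched in the Myh2 window. That window ends at the listed start of Myh2, so a motif past that start was not searched for. The Myh4 window also held CANNTG at 221 and 67 bases, a CArG box at 104 bases and a MEF2 match at 182 bases before the start. A further TATAAA began 213 bases before the start of Myh4. The MEF2 matches of Myh4 and Myh1 each contain TATAAA read on the other strand. Myh3 had a single CANNTG at 191 bases and Myh7 a single CANNTG at 106 bases before the start. Promoters were matched for 40 of the 53 members, of which 8 held a MEF2 match, against 3.03% of 27025 promoters in the table. A CArG box occurred in 5 (12.5%) against 1.41%, CANNTG in 32 (80.0%) against 66.1%, TATAAA in 9 (22.5%) against 13.0%, and CATTCC, the M-CAT element, in 13 (32.5%) against 12.6%. These are matches of letters and were not tested as binding sites.

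Muscle gene signal varied from tumour to tumour far more than most genes did. The median SD of the 53 members across the 12 osteosarcomas was 1.89 on the log2(signal + 30) scale, against 0.43 for all genes tested, and 31 of the 53 were among the 100 genes with the largest SD. Osteosarcoma 6 was the highest of the 12 tumours for 47 members (8.45% of all genes tested had it highest), and osteosarcoma 9 for the other 6 (4.74%), which were Mybph, Ttn, Neb, Sln, Mb and Fbxo32. Both tumours filled the top 2 places for 44 members (83.0%), against 2.64% of all genes. Myh8, Mybph, Xirp1, Cacna1s and Jph1 are among these 44 and reached 200 only in osteosarcomas 6 or 9. They passed the signal filter only through these tumours, so in the counts of this paragraph they are no separate support. Relative to the median tumour, osteosarcoma 6 was at least 1 higher (log2 scale) for 52 of 53 members (4.81% of all genes) and osteosarcoma 9 for 45 (3.19%). In bulk samples such as these, fewer cells of a type and less RNA per cell cannot be told apart.

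The tumours other than 6 and 9 formed a graded series rather than a uniform low group. Osteosarcoma 3 was at least 1 above the median tumour for 36 members (2.34% of all genes) and osteosarcoma 8 for 30 (2.48%), with median differences of 1.505 and 1.21. At the other end, osteosarcomas 11, 4 and 7 were at least 1 below the median tumour for 39 (5.59% of all genes), 37 (4.40%) and 36 members (8.76%). Osteosarcoma 1 was at least 1 below it for 23 members (2.66%). Signals under 200, which without detection calls could not be told from background, were read for 44 members in the RMS array. They were read for 48 members in osteosarcoma 4 and 45 in osteosarcoma 11, but for 0 in osteosarcoma 6 and 4 in osteosarcoma 9. In mc3T3 47 members were under 200. Orders and differences among readings under 200, such as most of the counts below the median tumour, are therefore given as read and carry this limit.

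**Figure D1:**
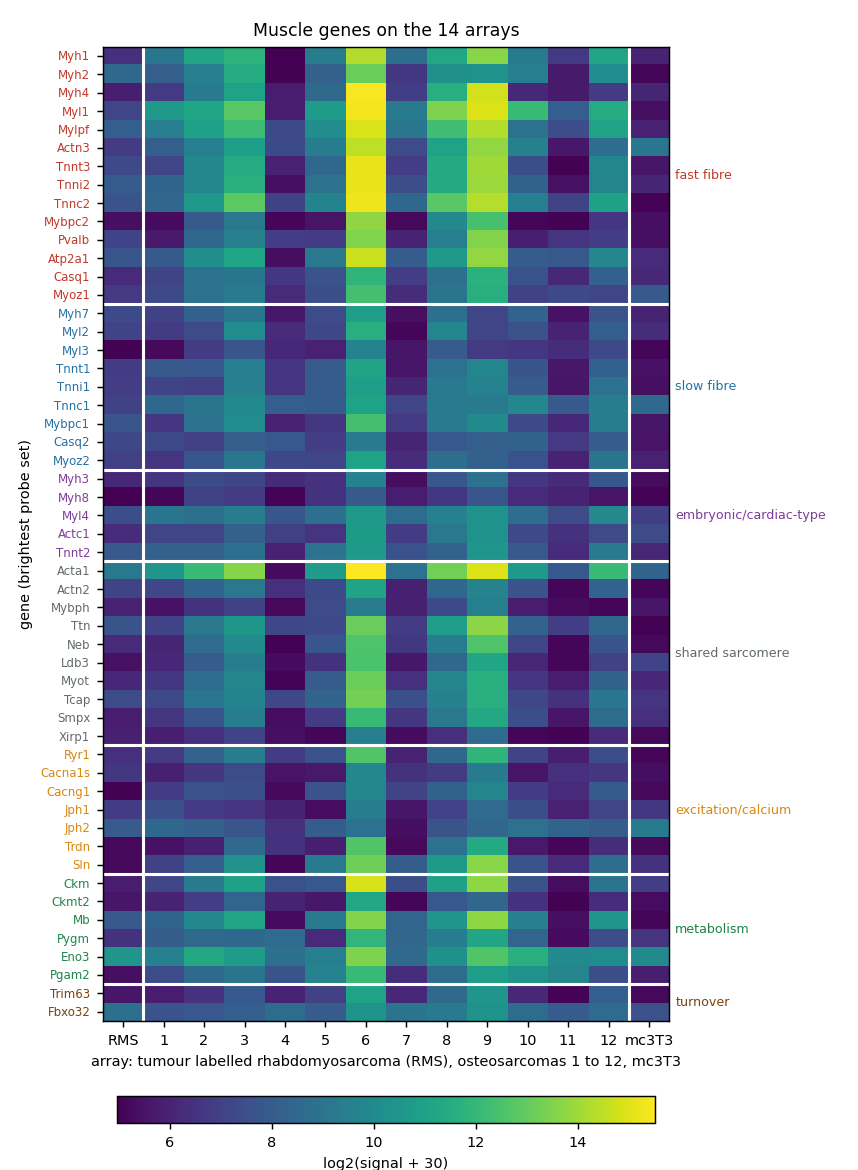
Heat map of log2(signal + 30) for the 53 members (rows, grouped and coloured by class) on the 14 arrays (columns: RMS, osteosarcomas 1 to 12, mc3T3). Columns 6 and 9 are bright for most rows, but in the slow fibre block column 9 is dim beside column 6, and columns 4 and 11 are dark for most rows.

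Fast fibre genes were high in both osteosarcomas 6 and 9. All 14 were highest in osteosarcoma 6, and 13 were second highest in osteosarcoma 9. The class median lay 5.05 above the median tumour in osteosarcoma 6 and 4.22 above it in osteosarcoma 9, on the log2 scale, with 14 and 13 of the 14 genes past 1. Differences on this scale understate those of dim genes because of the constant of 30 added to each signal.

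Myl1, the alkali light chain of fast myosin, had a signal of 114 in the RMS array, between 26.1 and 40970.4 in the osteosarcomas with a median of 2535, and 12.1 in mc3T3. Osteosarcoma 6 held its highest value and osteosarcoma 9 read 31952. Every osteosarcoma exceeded both the mc3T3 value and, except for osteosarcoma 4, the RMS value. Tnnc2, the calcium-binding troponin C of fast fibres, read 172 in the RMS array, between 97.5 and 39492 in the osteosarcomas with a median of 1188, and 3.2 in mc3T3. Its value in osteosarcoma 9 was 20823, and osteosarcomas 3 and 8 followed at 7392 and 7225. Myh4, the heavy chain of the fastest fibres, read 28.5 in the RMS array, between 23.1 and 43807 in the osteosarcomas with a median of 228.5, and 35.7 in mc3T3. Its 43807 in osteosarcoma 6 and 28724 in osteosarcoma 9 were 192-fold and 126-fold the median tumour, while 6 of the 12 tumours were under 100. Mylpf, the regulatory light chain of fast myosin, read 251 in the RMS array, between 133 and 31142.5 in the osteosarcomas with a median of 1569, and 31.4 in mc3T3, with 20406 in osteosarcoma 9. For each of these 4 genes, osteosarcomas 6 and 9 stood above the other 10 tumours with a gap.

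The remaining fast members were named after their values were seen. Actn3, the fast-fibre alpha-actinin of the Z-disc, read 23042 in osteosarcoma 6 and 14493 in osteosarcoma 9, and Tnnt3 and Tnni2, fast troponins T and I, were 2.24-fold and 2.34-fold higher in osteosarcoma 6 than in 9. Pvalb, a calcium buffer of fast fibres, was nearly equal at 11809 in osteosarcoma 6 and 11711 in osteosarcoma 9, as was Casq1, the fast calsequestrin, at 3690.1 and 3283. Atp2a1, the fast sarcoplasmic calcium pump, read 25913 in osteosarcoma 6 and 14169 in osteosarcoma 9. Mybpc2, the fast myosin-binding protein C, read 13835 and 5556, and Myoz1, a Z-disc protein that binds calcineurin, read 5456 and 2993.

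Myh2, the IIa heavy chain of the fast fibres richest in mitochondria, was the exception in this class. It read 8856 in osteosarcoma 6 and 1303 in osteosarcoma 9, a 6.80-fold difference, while osteosarcoma 3 reached 2849. Osteosarcoma 9 was below osteosarcoma 3 for Myh2, and 0.85 above the median tumour on the log2 scale. Myh1 differed 1.59-fold between osteosarcomas 6 and 9 and Myh4 1.53-fold, although a second, dimmer Myh4 probe set read 1926.5 in osteosarcoma 6 and 2509.5 in osteosarcoma 9. The Myh1 probe set is of a type that may share probes with related transcripts, so its reading may include other myosin heavy chains.

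Slow fibre genes were high in osteosarcoma 6 and, for most, near the median tumour in osteosarcoma 9. All 9 were highest in osteosarcoma 6, where the class median lay 3.16 above the median tumour, against 0.27 in osteosarcoma 9. Osteosarcoma 9 was at least 1 above the median tumour for only 3 of the 9 (Tnnt1, Tnni1 and Mybpc1). Osteosarcomas 3 and 8, whose fast gene medians (1.90 and 1.88 above the median tumour) were below that of osteosarcoma 9, both exceeded it for 5 of the 9 slow genes (Myh7, Myl2, Myl3, Tnnc1 and Myoz2) and for 0 of the 14 fast genes. Osteosarcoma 9 read under 200 for Myh7, Myl2 and Myl3, and for Myl3 osteosarcoma 3 did so too.

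Mybpc1, the slow myosin-binding protein C, had a signal of 182 in the RMS array, between 30.5 and 5453.5 in the osteosarcomas with a median of 284, and 18.3 in mc3T3. Its value in osteosarcoma 9 was 972, below the 1040.1 of osteosarcoma 3. On 2 further Mybpc1 probe sets osteosarcomas 6 and 9 were first and second. Tnnc1, the troponin C shared by slow and cardiac muscle, read 100.4 in the RMS array, between 115 and 2116 in the osteosarcomas with a median of 547, and 352 in mc3T3. Osteosarcoma 9, at 602, lay below osteosarcomas 3, 8, 10 and 12. Myl2, the regulatory light chain of slow and ventricular myosin, read 106 in the RMS array, between 5.0 and 3099 in the osteosarcomas with a median of 132, and 51.9 in mc3T3. Osteosarcoma 6 held the highest value, while osteosarcoma 9, at 116, and the median tumour were both under 200. Tnnt1, slow troponin T, read 84.0 in the RMS array, between 17.3 and 2229.8 in the osteosarcomas with a median of 223, and 14.2 in mc3T3. Here osteosarcoma 9 was second at 865, with osteosarcoma 6 2.58-fold higher.

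Myh7, the slow myosin heavy chain, was named after its values were seen. It read 133 in the RMS array, between 12.0 and 1815 in the osteosarcomas with a median of 153, and 34.1 in mc3T3. The highest value was that of osteosarcoma 6, and osteosarcoma 9 read 115, under 200, whereas osteosarcomas 2, 3, 8 and 10 read above 200. Myl3, the slow and ventricular alkali light chain, read 824.7 in osteosarcoma 6 and 78.6 in osteosarcoma 9, and its 2 other probe sets also had osteosarcoma 6 first, with every other tumour under 200. Myoz2, the slow-fibre relative of Myoz1, read 2116 in osteosarcoma 6 and 261 in osteosarcoma 9, Tnni1, slow troponin I, read 1807 and 771, and Casq2, the slow and cardiac calsequestrin, read 597 and 252. For Casq2, osteosarcomas 10 and 3 also exceeded osteosarcoma 9.

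**Figure D2:**
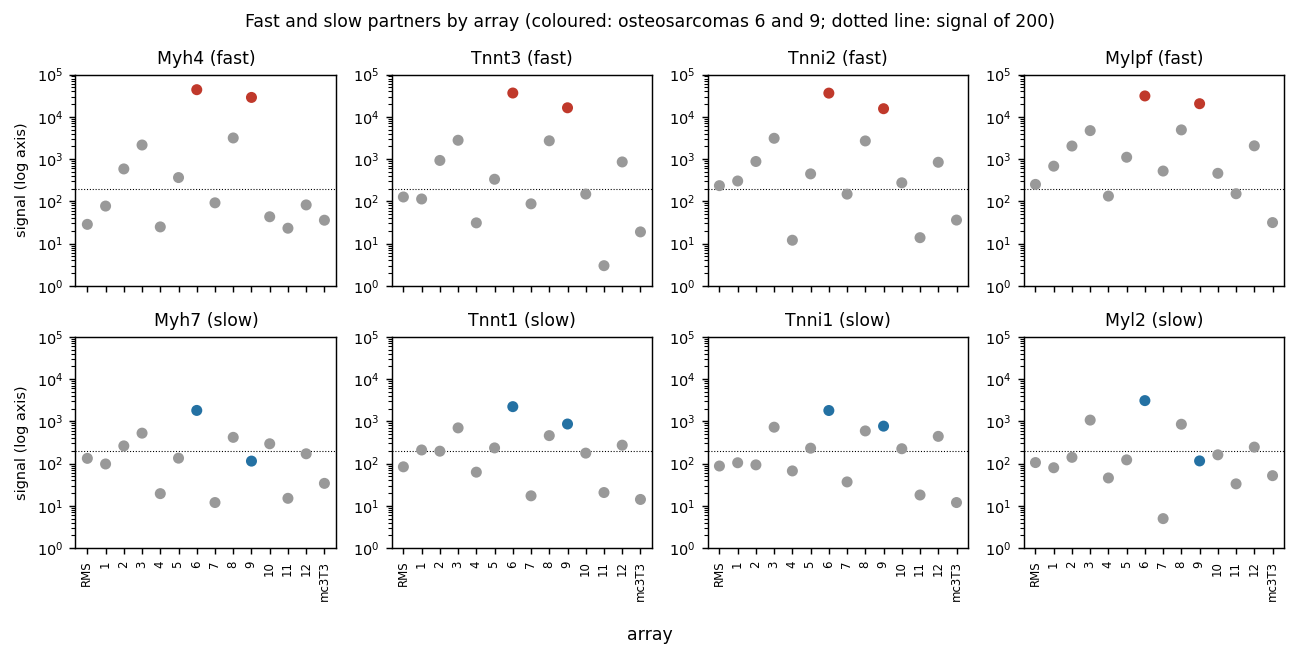
Signal (log axis) of 4 fast genes (top) and their slow counterparts (bottom) on the 14 arrays, each point 1 array, with osteosarcomas 6 and 9 coloured and a dotted line at a signal of 200. Osteosarcoma 9 lies close to osteosarcoma 6 in the top row, whereas for Myh7 and Myl2 osteosarcoma 6 reads 1815 and 3099 and osteosarcoma 9 reads 115 and 116, below the dotted line.

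Set directly against each other, osteosarcoma 6 exceeded osteosarcoma 9 by at least 1 on the log2 scale for 21 of the 53 members (4.44% of all genes), and osteosarcoma 9 exceeded osteosarcoma 6 by that much for 0 (5.07%). The 21 comprised 9 of 9 slow genes, 4 of 14 fast genes (Myh2, Mybpc2, Tnni2 and Tnnt3) and 0 of 5 embryonic or cardiac-type genes, together with 4 shared sarcomere, 1 calcium-handling and 3 metabolism genes. The median difference was 2.45 for slow genes, with a range of 1.15 to 4.42. For fast genes it was 0.76, with a range of 0.01 to 2.74, so the classes overlapped. The 3 slow genes with the largest differences, Myl2, Myh7 and Myl3, read under 200 in osteosarcoma 9, so the exact size of their differences depends on readings that could not be told from background. These are differences between single arrays of 2 tumours, with no replicate check. The array-wide actin 3′ to 5′ ratio, a measure of RNA integrity, was 1.97 in osteosarcoma 6 and 1.55 in osteosarcoma 9, within 1.42 to 2.13 over the 12 tumours. Its part in the difference was not tested.

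**Figure D3:**
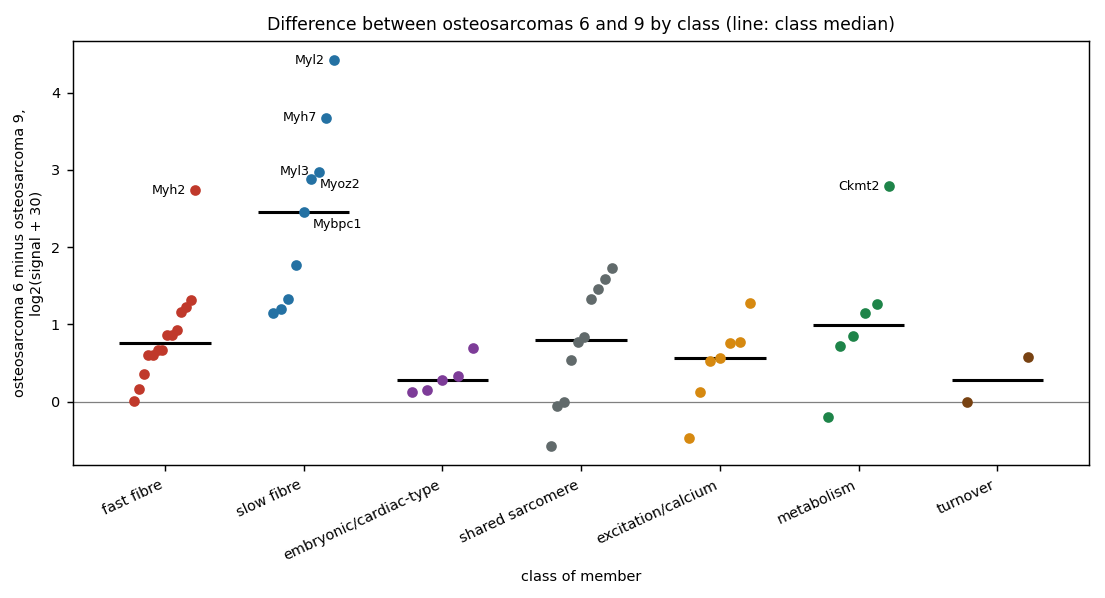
Difference between osteosarcoma 6 and osteosarcoma 9 in log2(signal + 30) for each of the 53 members, by class, with 1 point per gene and a line at the class median. The slow fibre points run from 1.15 to 4.42 around a median of 2.45, against a median of 0.76 for the fast fibre points, and the 5 embryonic or cardiac-type points lie between 0.13 and 0.70.

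Embryonic and cardiac-type genes were high in both tumours by similar amounts, except that Myh8 read under 200 in osteosarcoma 9. All 5 were highest in osteosarcoma 6 and second highest in osteosarcoma 9, with class medians of 2.40 and 2.04 above the median tumour and a median difference between them of 0.28. Myl4, a light chain of embryonic muscle and the atria, read 150.0 in the RMS array, between 136 and 1528 in the osteosarcomas with a median of 472, and 91.1 in mc3T3, with 1257 in osteosarcoma 9. Tnnt2, the cardiac troponin T also made by immature skeletal muscle, read 209 in the RMS array, between 31.1 and 1581 in the osteosarcomas with a median of 275, and 37.8 in mc3T3, with 1443 in osteosarcoma 9. Actc1, the cardiac alpha-actin of fetal skeletal muscle, read 47.9 in the RMS array, between 59.0 and 1667.5 in the osteosarcomas with a median of 123, and 139.5 in mc3T3. Osteosarcoma 9 read 1321, and osteosarcoma 8 was next at 561. Myh3, the embryonic heavy chain, read 43.2 in the RMS array, between 11.4 and 766 in the osteosarcomas with a median of 91.6, and 8.4 in mc3T3, with 461 in osteosarcoma 9. Myh8, the perinatal heavy chain, reached 212.5 in osteosarcoma 6 and 188 in osteosarcoma 9, and was under 100 on every other array. It passed the signal filter only through osteosarcoma 6 and was under 200 in osteosarcoma 9, so its places in the order are no separate support.

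Genes of the sarcomere that fast and slow fibres share were likewise highest in osteosarcomas 6 and 9, which took the top 2 places for all 10 measured. Acta1, the skeletal alpha-actin of the thin filament, read 554 in the RMS array, between 8.5 and 46907 in the osteosarcomas with a median of 2993, and 295.5 in mc3T3. Osteosarcoma 9 read 32288, and osteosarcomas 4 and 11 were below mc3T3. Ttn, the giant spring protein titin, read 171 in the RMS array, between 80.7 and 13032 in the osteosarcomas with a median of 299.8, and 2.7 in mc3T3. Osteosarcoma 6 read 8746, and the highest value was in osteosarcoma 9. A second Ttn probe set, also bright, gave the same order, whereas 2 dimmer ones had osteosarcoma 6 first. Tcap, the titin cap of the Z-disc, read 134 in the RMS array, between 59.7 and 10276 in the osteosarcomas with a median of 402, and 63.5 in mc3T3, with 3083 in osteosarcoma 9. Neb, the thin-filament ruler nebulin, read 43.7 in the RMS array, between 2.0 and 6302.5 in the osteosarcomas with a median of 185, and 7.0 in mc3T3. Osteosarcoma 6 was level with osteosarcoma 9 at 6281, and both were several-fold above osteosarcoma 3, the next at 991.5.

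The other shared members were highest in osteosarcoma 6, except Mybph. Myot, the Z-disc protein myotilin, was 3.03-fold and Actn2, the alpha-actinin of all fibre types, 2.82-fold higher in osteosarcoma 6 than in osteosarcoma 9. Ldb3, a Z-disc scaffold, read 5848 in osteosarcoma 6 and 2305 in osteosarcoma 9, Smpx, a small stretch-responsive protein, 4367 and 2545, and Xirp1, an actin-binding repair protein, 684 and 371. Mybph, myosin-binding protein H, read 671 in osteosarcoma 6 and 700.2 in osteosarcoma 9. These 6 genes were named after their values were seen.

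Calcium release and excitation genes were high in both tumours, with Jph2 as the exception. Sln, sarcolipin, a small inhibitor of the calcium pump, read 6.8 in the RMS array, between 5.5 and 12695 in the osteosarcomas with a median of 328, and 60.8 in mc3T3. Osteosarcoma 6 read 9182, and the highest value was in osteosarcoma 9. Ryr1, the calcium release channel, read 56.9 in the RMS array, between 27.9 and 6359 in the osteosarcomas with a median of 160.2, and 5.6 in mc3T3, with 3700.5 in osteosarcoma 9. Trdn, triadin, which couples that channel to calsequestrin, read 6.2 in the RMS array, between 5.7 and 6490.2 in the osteosarcomas with a median of 40.6, and 7.8 in mc3T3, with 2669.5 in osteosarcoma 9. Cacng1, a subunit of the voltage sensor, read 2.9 in the RMS array, between 7.7 and 909 in the osteosarcomas with a median of 162.5, and 7.1 in mc3T3. Osteosarcoma 9 was close to osteosarcoma 6 at 833. Cacna1s, the voltage sensor itself, and Jph1, a junctophilin that holds the membranes together, were named after their values were seen. Cacna1s read 916 in osteosarcoma 6 and 608 in osteosarcoma 9, and Jph1 639 and 367. Jph2, the other junctophilin listed, did not share this pattern. For Jph2, mc3T3, at 617, exceeded every osteosarcoma, while osteosarcomas 6 and 10 were level at 468 and 466.

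All 6 metabolic genes were at least 1 above the median tumour in both osteosarcomas 6 and 9, and the mitochondrial creatine kinase differed most between them. Ckm, the cytosolic muscle creatine kinase, read 24.8 in the RMS array, between 9.7 and 30222 in the osteosarcomas with a median of 349, and 88.3 in mc3T3. Osteosarcoma 9 read 13664, and osteosarcomas 8 and 3 came next at 2045 and 1995. Mb, the oxygen-binding protein myoglobin, read 209 in the RMS array, between 9.2 and 13431 in the osteosarcomas with a median of 812, and 5.8 in mc3T3. Osteosarcoma 6 read 11691 and the highest value was in osteosarcoma 9, whereas all 9 slow genes were highest in osteosarcoma 6. Eno3, the muscle enolase of glycolysis, read 1396 in the RMS array, between 361 and 11505.5 in the osteosarcomas with a median of 1130.5, and 1017 in mc3T3. The RMS array was above the median tumour, and osteosarcoma 9 read 6373. Pgam2, the muscle phosphoglycerate mutase, read 12.5 in the RMS array, between 51.3 and 4402 in the osteosarcomas with a median of 449, and 28.0 in mc3T3, with 1816 in osteosarcoma 9.

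Ckmt2, the creatine kinase of muscle mitochondria, was named after its values were seen, as was Pygm. Ckmt2 read 2413 in osteosarcoma 6 and 323 in osteosarcoma 9, a 7.47-fold difference, with osteosarcoma 3 at 308. Pygm, muscle glycogen phosphorylase, read 3837 in osteosarcoma 6 and 2319 in osteosarcoma 9. The ubiquitin ligases of muscle atrophy, Trim63 (MuRF1) and Fbxo32 (atrogin-1), make up the turnover class. Trim63 read 18.9 in the RMS array, between 3.6 and 2122 in the osteosarcomas with a median of 78.8, and 6.2 in mc3T3, with 1408 in osteosarcoma 9. Fbxo32 read 434.5 in the RMS array, between 172 and 1300.0 in the osteosarcomas with a median of 374, and 159 in mc3T3, and osteosarcomas 6 and 9 were level at 1292 and 1300.0.

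A list of 43 other muscle genes, of which 38 had a probe set, showed the same top tumour. Osteosarcoma 6 was highest for 35 of 38 (8.45% of all genes) and osteosarcomas 6 and 9 were the top 2 for 27 (2.64%). Pln, Clcn1 and Chrne, counted among the 35, were under 200 on every array. The sum over these 38 was 5094 in RMS, 105482 in osteosarcoma 6, 53994 in osteosarcoma 9 and 10840.0 in mc3T3, with 7894 as the lowest osteosarcoma. Cryab alone made up most of the mc3T3 sum. It read 1153.9 in RMS, 18685.9 in osteosarcoma 6, 9714.4 in osteosarcoma 9 and 6856.1 in mc3T3. Of the 35 tested, 2 rose in osteosarcomas against mc3T3, Fabp3 (a fatty acid carrier of oxidative muscle, 3.35 ± 0.72 SE on the log2 scale, limma adjusted p = 0.00628) and Hrc (a calcium-binding protein of the reticulum, 2.998 ± 0.81, limma adjusted p = 0.0231). For all genes tested, 8.59% rose in that comparison and 1.76% fell in RMS against osteosarcomas. Fabp3 also fell in RMS against osteosarcomas (-3.36 ± 0.72 SE, limma adjusted p = 0.0202), the only one of the 35 to pass there. Des, the muscle intermediate filament desmin, read 88.6 in the RMS array, between 100.5 and 7744 in the osteosarcomas with a median of 727, and 81.4 in mc3T3, with 3945 in osteosarcoma 9.

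Among 20 regulators and junction genes, of which 19 had a probe set, the MyoD family genes Myod1 and Myog had their 2 highest values in osteosarcomas 6 and 9. Both tumours filled the top 2 places for 9 of the 19 (2.64% of all genes), and 11 of the 19 reached 200 on any array. Among the 9, Myf5, Mymk, Mymx and Musk were under 200 on every array. Mef2a was highest in osteosarcoma 4, and Mef2c and Mef2d in osteosarcoma 7, all named after their values were seen. Myod1 read 39.4 in the RMS array, 339 in osteosarcoma 6, 455 in osteosarcoma 9 and 23.8 in mc3T3, and under 200 in the other 10 tumours. Myog read 65.9 in the RMS array, 469.6 in osteosarcoma 6, 530.2 in osteosarcoma 9 and 58.9 in mc3T3, and was also under 200 in the other 10 tumours. Both are transcription factors of muscle differentiation and are commonly used to identify rhabdomyosarcoma, and with Des at 88.6 the RMS array was under 200 for all 3. Some other genes of the list were not low in RMS. Six4, a developmental transcription factor, read 503 in RMS, above the osteosarcoma maximum of 422. Chrnb1, an acetylcholine receptor subunit, and Ncam1, an adhesion molecule, read 241 and 1174 in RMS, above the osteosarcoma medians of 83.0 and 753. Among the osteosarcomas, Chrnb1 was still highest in 6 (387) and second in 9 (339.5), and Ncam1 was highest in 6 (1362). These 3 were named after their values were seen. Of the 11 tested, 3 had a higher and 8 a lower estimate in RMS than in osteosarcomas. "RMS" below means the tumour so labelled. For all genes tested, 1.76% fell in RMS against osteosarcomas and 8.59% rose in osteosarcomas against mc3T3. Across the osteosarcomas, Cdh15 was highest in osteosarcoma 6 (1763.7). Osteosarcomas 8, 7 and 10, at 1570.4, 1424.7 and 1131.4, exceeded osteosarcoma 9, at 1081.0. Of the 11 tested in this list, only Cdh15, the adhesion protein M-cadherin, passed in either comparison: it was lower in RMS than in osteosarcomas by 4.50 ± 0.63 and higher in osteosarcomas than in mc3T3 by 3.34 ± 0.63 on the log2 scale (SE, limma adjusted p = 0.00109 and 0.00259).

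Markers of other tissues were measured beside these. None of the 6 heart chamber markers reached 200 on any array (highest 159.5), so the cardiac-type members above were not accompanied by Nppa, Myl7 or Myh6. None of the 3 brown fat markers reached 200 either. The summed signal of 5 adipocyte markers was 3014 in RMS, 65362 in osteosarcoma 6, 47921 in osteosarcoma 9 and 47 in mc3T3, with 16696 to 66979 over the osteosarcomas. Adipoq, the most fat-specific of them, read 1569.7 in osteosarcoma 6 and 462 in osteosarcoma 9, and Car3, which dominates the sum, is also a slow-muscle gene. The summed signal of 7 smooth muscle markers, which include Des, was 14474 in RMS, 21959 in osteosarcoma 6, 7687 in osteosarcoma 9 and 72463 in mc3T3, with 1407 to 24562 over the osteosarcomas. For 6 bone-forming markers the sum was 19089 in RMS, 102871 in osteosarcoma 6, 101266 in osteosarcoma 9 and 65431 in mc3T3, with an osteosarcoma median of 102664. The part of these cell types in the muscle signal was not tested.

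Relations across the 12 osteosarcomas were computed between Ckm and 8 genes, with two-sided permutation p-values adjusted by Benjamini-Hochberg over the 8. Ckm rose with the slow gene Tnnt1 (r = 0.904, p = 4e-05, adjusted p = 0.00032; rho = 0.874, p = 0.00048, adjusted p = 0.0024) and with the embryonic gene Myh3 (r = 0.904, p = 0.00018, adjusted p = 0.000693; rho = 0.860, p = 0.0006, adjusted p = 0.0024). It rose also with Myod1 (r = 0.902, p = 0.0004, adjusted p = 0.0008; rho = 0.804, p = 0.00222, adjusted p = 0.00592) and Myog (r = 0.914, p = 0.00026, adjusted p = 0.000693; rho = 0.755, p = 0.0056, adjusted p = 0.0112). Tnnt1 was the only slow gene related to Ckm here and does not stand for its class. It was among the 3 of 9 slow genes for which osteosarcoma 9 was at least 1 above the median tumour. Myod1 and Myog reached 200 only in osteosarcomas 6 and 9, the highest 2 for Ckm, and passed the signal filter only through them. Their values over any set of tumours that holds both therefore rest on those 2 and are no separate support. Without osteosarcomas 6 and 9, the tumours farthest from the Ckm median, these 4 relations had r of 0.822, 0.710, 0.712 and 0.747 over 10 tumours, with permutation adjusted p of 0.0206 for Tnnt1 and 0.0454 for each of the other 3. Among those 10 tumours, all read under 200 for Myod1 and Myog, 8 did so for Myh3 and 5 for Ckm itself, so these values rest largely on signals that could not be told from background. None of the 4 kept an adjusted p under 0.05 by Spearman's rho there, with 0.061 the smallest.

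Ckm was also related to the fat gene Adipoq (r = 0.775, permutation p = 0.00436, adjusted p = 0.00683; rho = 0.727, p = 0.0094, adjusted p = 0.015) and to Des (r = 0.781, permutation p = 0.00512, adjusted p = 0.00683; rho = 0.608, p = 0.0402, adjusted p = 0.0536). The values for Cdh15 were lower (r = 0.657, permutation p = 0.021, adjusted p = 0.024; rho = 0.545, p = 0.0728, adjusted p = 0.0832). Without osteosarcomas 6 and 9, none of these 3 had an adjusted p under 0.05: r was 0.635 for Adipoq, 0.319 for Des and 0.538 for Cdh15, with permutation adjusted p of 0.079, 0.419 and 0.146 over 10 tumours. Ibsp, bone sialoprotein, showed no detectable relation (r = -0.366, permutation p = 0.233, adjusted p = 0.233; rho = -0.231, p = 0.472, adjusted p = 0.472), and without both tumours r was -0.097. Within the 6 tumours whose identifiers begin with m, which include osteosarcomas 6 and 9, exact permutation gave r of 0.972 for Tnnt1, 0.965 for Myh3, 0.977 for Des, 0.969 for Myod1, 0.949 for Myog, 0.841 for Adipoq, 0.670 for Cdh15 and -0.781 for Ibsp, with adjusted p of 0.0222, 0.0278, 0.0222, 0.0278, 0.0356, 0.037, 0.125 and 0.0698 in that order. The 4 c and 2 o tumours were too few for values of their own.

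**Figure D4:**
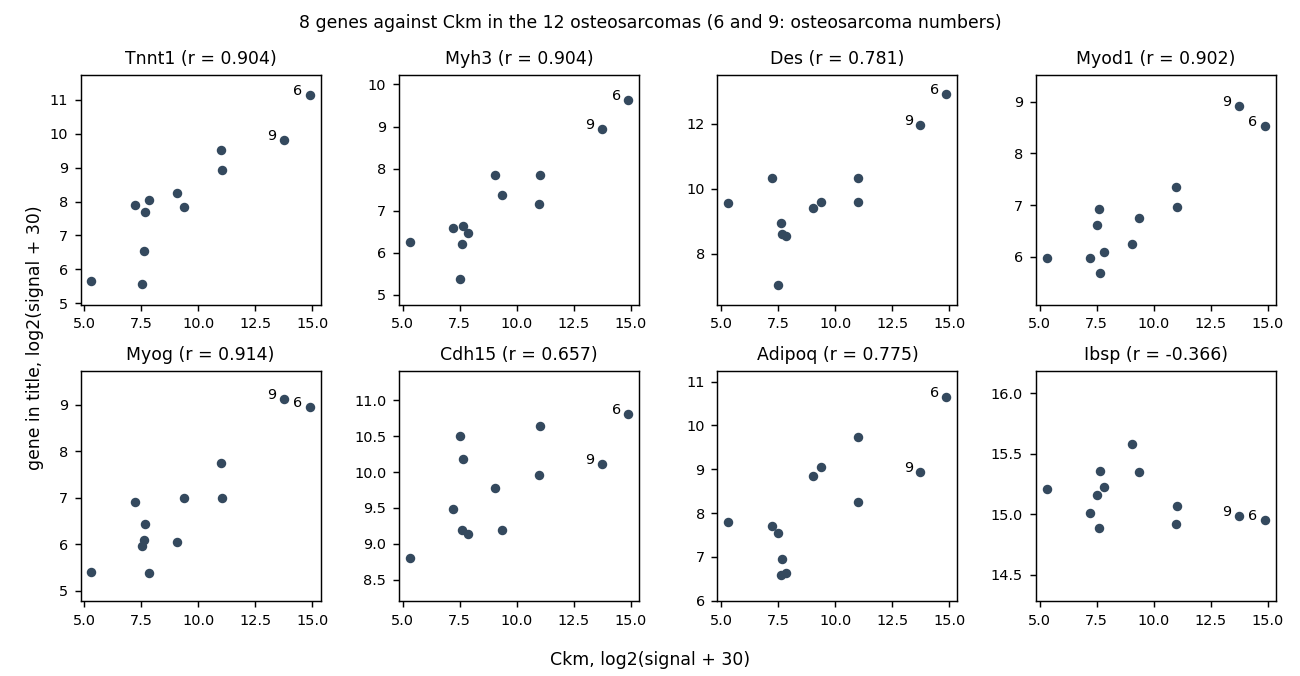
Each panel plots 1 gene against Ckm, both as log2(signal + 30), with 1 point per osteosarcoma (12) and osteosarcomas 6 and 9 numbered. Pearson's r is 0.904 for Tnnt1 and Myh3 and -0.366 for Ibsp, and in the panels of Myod1 and Myog osteosarcomas 6 and 9 stand clear of the other 10.

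The comparison of the RMS with the osteosarcomas asked how the tumour labelled as muscle-like stood on muscle genes. No member passed the test (limma adjusted p under 0.05 and a difference of at least 1): 0 rose, against 1.19% of all genes, and 0 fell, against 1.76%. The median difference of the 53 members, RMS minus osteosarcoma, was -1.65 on the log2 scale, against 0.05 for all genes tested. RMS was below the osteosarcoma median for 49 members and within the range of the 12 tumours for 47, counts for which the share of all genes is not given. RMS itself read under 200 for 44 of the 53 members, so most of the 49 rest on readings that could not be told from background. It was below all 12 for 6 members (11.3%; 14.1% of all genes), all 6 with RMS readings under 200, and above all 12 for 0 (16.6% of all genes). At an unadjusted p under 0.05, 1 member was lower (8.03% of all genes) and 0 were higher (7.95%); the lower one, Pgam2, differed by -3.60 ± 1.51 (SE, limma adjusted p = 0.252). RMS signals of at least 200 were read for Myh2, Mylpf, Tnni2, Tnnt2, Acta1, Jph2, Mb, Eno3 and Fbxo32.

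The comparison of osteosarcomas with mc3T3 also called no member: 0 rose, against 8.59% of all genes, and 0 fell, against 4.58%. The median member difference was 2.20 on the log2 scale, against -0.02 for all genes, but the members' standard errors ran from 0.82 to 3.11 with a median of 1.72, against a median of 0.44 for all genes. At an unadjusted p under 0.05, 5 members were higher (15.3% of all genes) and 0 lower (12.3%). They were Casq2 (2.11 ± 0.82 SE, limma adjusted p = 0.106), Myl4 (2.18 ± 0.88, 0.122), Myl1 (5.94 ± 2.48, 0.132), Tnnc2 (5.55 ± 2.48, 0.161) and Mylpf (4.75 ± 2.21, 0.178). Myh4 differed by 3.05 ± 3.11 (SE, limma adjusted p = 0.567) and Acta1 by 2.94 ± 2.70 (SE, limma adjusted p = 0.516). With a pseudocount of 1, 2 members rose (Casq2 and Tnnc2, against 9.87% of all genes), and with the 6 m tumours alone, 6 rose (Casq2, Mb, Myh2, Myl1, Myl4 and Tnni1, against 8.36%). Without osteosarcoma 4 only Myl1 rose (8.54% of all genes), and without osteosarcoma 7 only Casq2 (9.34%).

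All 12 osteosarcomas exceeded mc3T3 for 19 members (35.8%; 21.5% of all genes) and all 12 were below it for Jph2 alone (1.89%; 21.0% of all genes), while mc3T3 lay within the range of the tumours for 33. For each of those 19, mc3T3 and the lowest osteosarcoma both read under 200. Their separation therefore rests on readings that could not be told from background. Osteosarcomas 4 and 11 were the lowest tumour for 19 members each. All of those lowest readings were under 200, so which tumour was lowest could not be told from background. The share of all genes is not given here. mc3T3 itself read at least 200 for Actn3, Myoz1, Tnnc1, Acta1, Jph2 and Eno3. The RMS and mc3T3 arrays could be compared only as 1 array each, without a test: RMS was at least 1 higher (log2 scale) for 20 members (37.7%; 17.8% of all genes) and at least 1 lower for 8 (15.1%; 13.4%). Of the 20, only Myh2, Mylpf, Tnni2, Tnnt2, Mb and Fbxo32 reached 200 in RMS. The rest were under 200 on both arrays, so most of this count rests on readings that could not be told from background. Of the 8, only Actn3, Myoz1, Tnnc1 and Jph2 reached 200 on either array. Myh2 showed the largest positive difference, at 337 in RMS and 5.9 in mc3T3, and Actn3 the largest negative one, with a difference of -2.28.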

How the data were processed

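Total RNA was hybridised to 14 arrays of 45101 probe sets, 64 of them controls. The deposited values are the authors' linear signal (intensity), and the submitters' processing notes name GCOS without a version. Every array had a mean of 500.0 once 2% of probe sets had been trimmed at each end, so scaling preceded deposit. The background step is not given in the sources used here. The number of arrays limits the precision. No further value columns were left unread (0), and no pair of arrays was identical.

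Samples were grouped by title, because each description names mc3T3. Genes were named through the platform annotation: 34945 probe sets had 1 symbol, 932 several and 9160 none. Genes were represented by the brightest probe set, kept where 1 or more arrays reached a signal of 200, and tested on log2(signal + 30) of the deposited intensity with limma 3.58.1 (R 4.3.3), in a model of 3 groups with 11 residual degrees of freedom and Benjamini-Hochberg adjustment over all 11815 genes. Genes were called at 0.05 (adjusted p) where the difference was also 1 or more. With 1 RMS and 1 mc3T3 array, the spread is that of the osteosarcomas. Permutations (100000) used scipy 1.17.1. The model was tested on simulated data.

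The text gives values for the 4 members of each class with the highest mean osteosarcoma signal and for members called; others are marked as named after their values were seen. Of genes outside the members, it names called genes, the genes of the relations and marker genes. Members and lists were chosen with earlier results of these data known. Alternatives changed scaling, pseudocount, filter, probe-set choice, variance model and tumours.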

Additional observations from a re-analysis of the deposited data

How the results depend on the processing

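For RMS against osteosarcoma, 0 members were called under all 22 alternatives. For osteosarcoma against mc3T3, 0 were called under 18 of 22. The exceptions were a pseudocount of 1, with 2 (Casq2 and Tnnc2; 9.87% of all genes rose), and the 6 m tumours alone, with 6 (Casq2, Mb, Myh2, Myl1, Myl4 and Tnni1; 8.36%). Leaving out each osteosarcoma in turn gave 0 to 1: without osteosarcoma 4 it was Myl1 (6.45, limma adjusted p = 0.048) and without osteosarcoma 7 it was Casq2 (2.25, limma adjusted p = 0.0481). Without osteosarcomas 6 and 9 the member medians were 1.60 for osteosarcoma minus mc3T3 and -1.03 for RMS minus osteosarcoma. Myh7 in RMS minus osteosarcoma, -0.23, changed sign without osteosarcomas 6 and 9 (0.0506) and without osteosarcoma 6 (0.0618), leaving out 1 tumour in turn giving -0.434 to 0.0618. Among the relations of Ckm, r lost its adjusted p under 0.05 without osteosarcomas 6 and 9 for Des (0.319), Cdh15 (0.538) and Adipoq (0.635), and in the m tumours alone for Cdh15 (0.67). The class medians of osteosarcoma 6 minus osteosarcoma 9 were recomputed under 4 settings chosen after seeing the data: they ran from 1.76 to 2.49 for slow genes, 0.48 to 0.77 for fast genes and 0.15 to 0.32 for embryonic and cardiac-type genes. Hrc was also called lower in RMS without osteosarcomas 6 and 9 (-2.75) and without osteosarcoma 3 (-3.13). No paired analysis was possible because the labels give no replicate numbers shared between groups. Signals under 200 cannot be told from background, and each tumour was measured once.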

Other observations

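Muscle genes outside the listed members also differed between osteosarcomas 6 and 9, as values of single arrays named after they were seen. The muscle forms of cytochrome oxidase subunits read higher in osteosarcoma 6: Cox6a2 was 6845 in osteosarcoma 6 and 1944 in osteosarcoma 9, Cox8b was 4682 and 1098, and Cox7a1 was 1206.5 and 340.0. Ankrd2, a stretch-responsive gene of slow muscle, read 1866 in osteosarcoma 6 and 164 in osteosarcoma 9, and osteosarcoma 12 read 1863. In contrast, Myf6, a MyoD family factor of mature fibres, read 2163 in osteosarcoma 6 and 1859 in osteosarcoma 9, and Chrna1, the acetylcholine receptor subunit of the neuromuscular junction, read 1717 and 1617.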
